A study of Mus musculus with 2 samples.

Results

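The genes for the protein subunits of the cytosolic ribosome were described in liver RNA sequencing from an adult female C57BL/6J mouse, an inbred strain, aged 10 weeks; the series has this 1 animal. The members are the protein-coding genes whose symbol is Rpl or Rps followed by a number, together with Rplp0, Rplp1, Rplp2 and Rpsa, without the Rps6k kinases and the symbols that mark pseudogenes. The rule found 86 genes among the 69691 entries of the gene tables, of which 21461 were nuclear protein-coding genes. Of these 86, 52 have symbols of the large subunit and 33 have symbols of the small subunit. The other one, Rps19bp1, codes for a protein that binds Rps19 and is not itself a ribosomal protein, so it was counted apart. The series holds 2 libraries of the same animal, labelled as technical replicates and called library 1 and library 2 here. Polyadenylated RNA was sequenced after extraction with the RNeasy Lipid Tissue Mini kit of QIAGEN. Library 2 is dated May 2015 in the labels, and library 1 carries no date there. Both libraries form a single group with no treatment, genetic change or second animal, so nothing was compared between conditions and no p-value was computed. Means and SDs are taken over these libraries (n = 2) and measure technical spread.

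The ribosome builds proteins from messenger RNA. Its small subunit decodes the message, and its large subunit joins the amino acids. Each subunit is a core of ribosomal RNA dressed with proteins that, apart from the acidic stalk proteins P1 and P2, are present in a single copy, so a cell needs its ribosomal proteins in nearly matched amounts. Their mRNAs are short and abundant, and most start with a run of pyrimidines (C and T) known as a terminal oligopyrimidine (TOP) tract, through which mTOR and the RNA-binding protein Larp1 set their translation. Many of these genes also carry small nucleolar RNAs, the guides for modification of ribosomal RNA, in their introns.

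Apart from a few paralogs, the levels of the ribosomal protein mRNAs were far more uneven in library 1 than in library 2, and the differences followed the base composition of the mRNAs. The start of the coding sequence is therefore shown for members towards either end of the range of differences, in reading order from the start codon, with G and C in capitals. Each stretch holds the first 120 bases and comes from the GENCODE M21 transcripts. The coordinates are those of the gene on GRCm38, the assembly also called mm10. The large subunit gene Rpl36 (ENSMUSG00000057863.5, chr17:56613416-56614243, plus strand), the small subunit gene Rps15 (ENSMUSG00000063457.10, chr10:80292453-80294114, plus strand) and the large subunit gene Rpl8 (ENSMUSG00000003970.8, chr15:76904078-76906314, plus strand) had the largest differences between the libraries. The whole coding sequences of these transcripts are 61.6%, 58.9% and 58.8% G and C.
Rpl36: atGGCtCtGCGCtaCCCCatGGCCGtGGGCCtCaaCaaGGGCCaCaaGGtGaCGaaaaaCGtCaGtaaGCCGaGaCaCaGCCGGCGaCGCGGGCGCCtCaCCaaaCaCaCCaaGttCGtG
Rps15: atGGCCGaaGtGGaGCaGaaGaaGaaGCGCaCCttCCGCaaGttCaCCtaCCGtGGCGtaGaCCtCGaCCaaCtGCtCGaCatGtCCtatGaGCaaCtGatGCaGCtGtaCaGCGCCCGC
Rpl8: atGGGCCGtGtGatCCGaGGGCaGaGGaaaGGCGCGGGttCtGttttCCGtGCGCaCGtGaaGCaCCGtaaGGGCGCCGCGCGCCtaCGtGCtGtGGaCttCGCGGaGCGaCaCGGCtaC
The small subunit gene Rps24 (ENSMUSG00000025290.12, chr14:24487125-24496959, plus strand), the large subunit gene Rpl30 (ENSMUSG00000058600.9, chr15:34440505-34443640, minus strand) and the Rpl22 paralog Rpl22l1 (ENSMUSG00000039221.6, chr3:28805436-28807424, plus strand) lay towards the other end. Their coding sequences are 45.9%, 44.9% and 39.7% G and C. By the scaled log2 fold given below, Rps27l and Rpl5 lay between Rpl22l1 and Rpl30. They are not in this set, and their mean coding GC contents were 45.6% and 46.9%.
Rps24: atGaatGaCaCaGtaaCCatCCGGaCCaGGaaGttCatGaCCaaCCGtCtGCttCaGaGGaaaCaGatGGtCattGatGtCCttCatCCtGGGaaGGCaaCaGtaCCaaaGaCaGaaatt
Rpl30: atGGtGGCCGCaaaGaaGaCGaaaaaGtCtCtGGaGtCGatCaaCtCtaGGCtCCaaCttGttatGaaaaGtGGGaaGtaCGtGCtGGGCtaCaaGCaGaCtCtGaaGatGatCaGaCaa
Rpl22l1: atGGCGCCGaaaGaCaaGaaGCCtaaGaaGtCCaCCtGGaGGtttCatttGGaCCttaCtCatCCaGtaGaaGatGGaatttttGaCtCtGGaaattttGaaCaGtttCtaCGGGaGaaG
G and C make up 61.7%, 57.5% and 65.8% of the bases printed in the first set and 45.8%, 46.7% and 43.3% in the second.

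Together the 86 members held 6645 TPM in library 1 and 27848 in library 2. TPM is a relative abundance per transcript, corrected for its length, and its total is the same in each library. The members' share of all TPM was therefore 0.665% in the first library and 2.78% in the second, a mean of 1.72% ± 1.50 (SD, n = 2). Mitochondrially encoded transcripts enter that total. Among nuclear protein-coding genes alone, the members held 1.77% and 3.78% of the TPM, a mean of 2.77% ± 1.42 (SD, n = 2). As estimated read counts, with no correction for length, they held 77038 of 23309905 counts in library 1, a share of 0.330% with an exact Clopper-Pearson 95% interval of 0.328% to 0.333%. In library 2 they held 223983 of 19525500 counts, 1.15% with an interval of 1.14% to 1.15%. These intervals cover counting error only and are far narrower than the gap between the libraries. That gap lies between libraries labelled as technical replicates of the same animal. A level in bulk tissue also does not tell the number of cells of a type from their RNA per cell.

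The large subunit genes summed to 3397 TPM in library 1 and 15764 in library 2, and the small subunit genes to 3246 and 12071. The median large subunit gene stood at 42.9 TPM in library 1 and 283 in library 2. The median small subunit gene stood at 54.0 and 344. The median level of the large subunit genes was thus below that of the small subunit genes in both libraries, by 0.33 and 0.28 on the log2(TPM + 0.1) scale. The mean difference, large minus small, was -0.31 ± 0.035 (SD, n = 2). The large subunit set includes the paralogs Rpl3l, Rpl10l and Rpl39l, which were near 0 TPM. With paralogs set aside, the large and small subunit medians of log2(TPM + 0.1) were nearer, at 5.51 and 5.76 in library 1. They were 8.26 and 8.43 in library 2.

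The evenness of the set differed as well as its sum. Of the members, 77 stand for 1 ribosomal protein each, once the paralogs and Rps19bp1 are set aside. These 77 had a median of 51.6 TPM in library 1, with 5.97 at the 10th percentile and 202 at the 90th, a 33.8-fold range. In library 2 the median was 328 TPM and the same percentiles were 188 and 545, a 2.89-fold range. In library 1, 28 of the 77 genes lay within 2-fold of their median and 26 were under 20 TPM. In library 2, 68 of 77 lay within 2-fold of the median and none was under 100 TPM, the lowest being Rpl37 at 105 TPM. The SD of log2(TPM + 0.1) across the 77 genes was 2.13 in library 1 and 0.63 in library 2; over all 86 members, with the paralogs that were barely counted, it was 2.56 and 2.30. The order of the genes was hardly shared. Spearman's rho between the libraries' TPM was 0.26 over the 86 members and 0.15 over the 77, as a description across genes that share a library, its depth and its base composition. The genes for the proteins of the mitochondrial ribosome, a separate machine with its own protein set, showed a smaller contrast. Over 77 such genes the range from the 10th to the 90th percentile was 14.8-fold in library 1 and 5.37-fold in library 2, and 43 and 56 of them lay within 2-fold of their median.

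**Figure D1:**
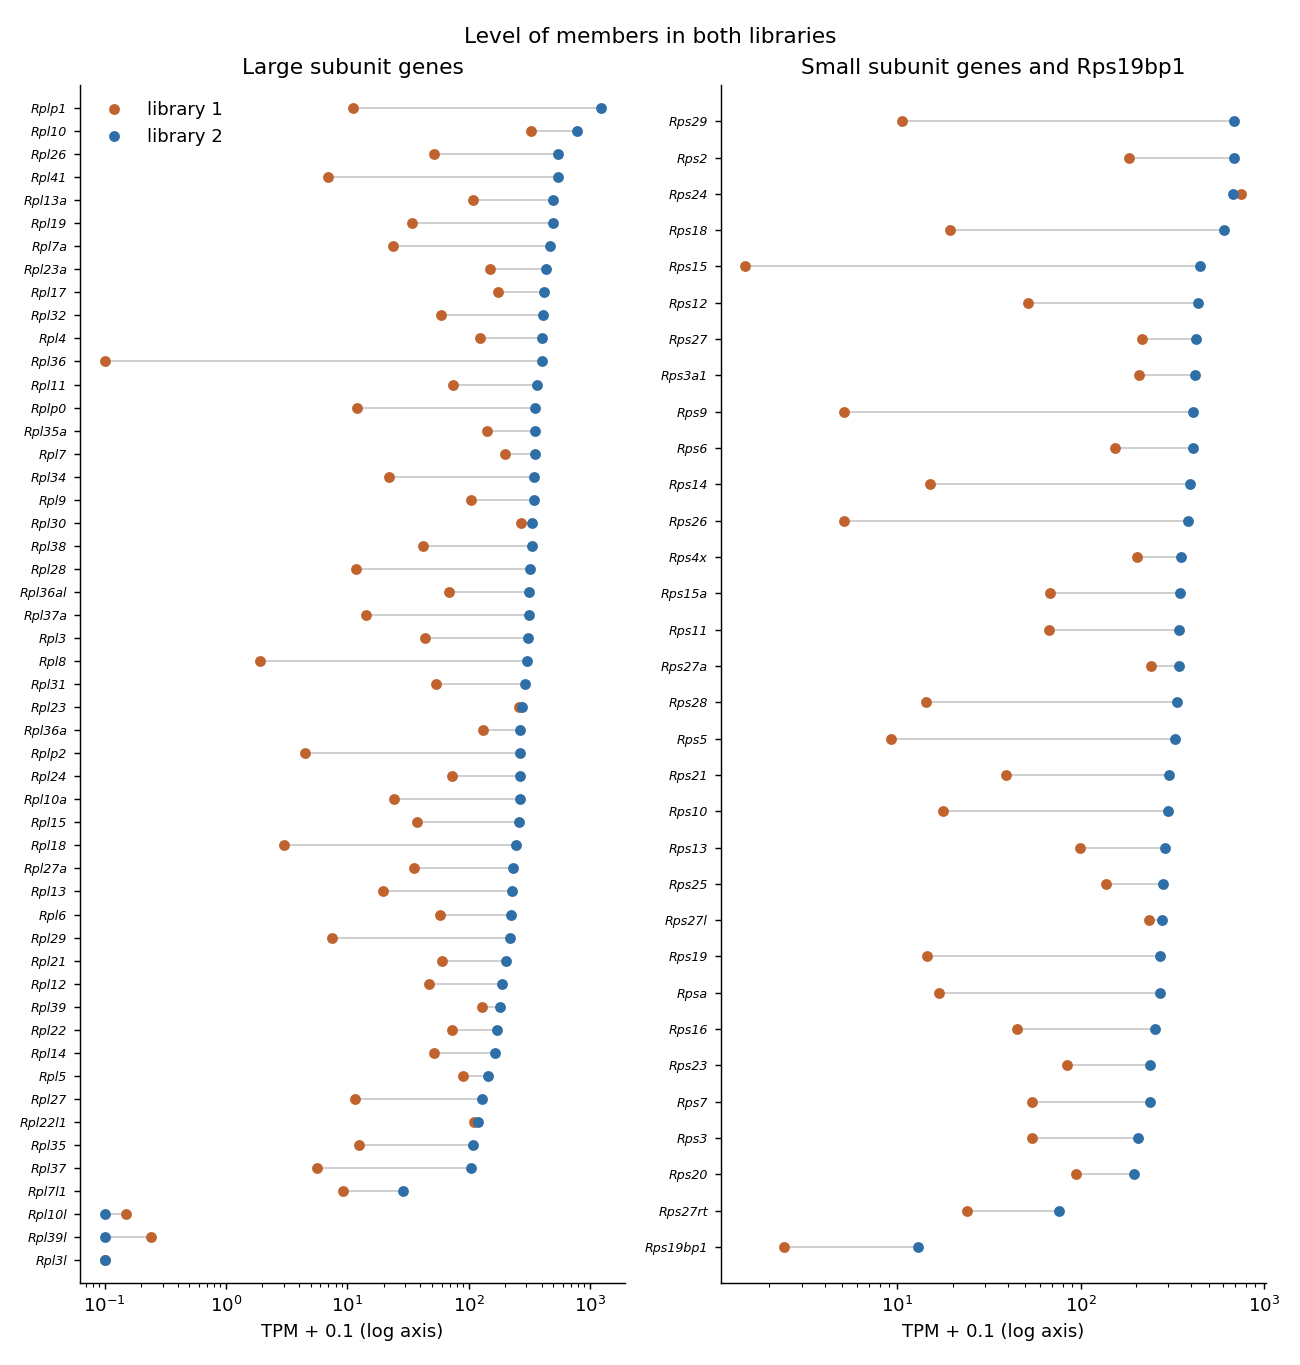
TPM of 83 of the 86 members in library 1 (orange) and library 2 (blue), as TPM + 0.1 on a log axis, with large subunit genes on the left and small subunit genes with Rps19bp1 on the right, each sorted by library 2; grey lines join the 2 libraries. The blue points form a narrow band for all but a few paralogs and Rps19bp1, while the orange points run from 0 TPM for Rpl36 to 754 TPM for Rps24.

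By mean level, Rps24 was the highest member, at 754 TPM in library 1 and 677 in library 2 (715 ± 54.3, SD, n = 2). It ranked 78th among nuclear protein-coding genes in library 1, where no other member was among the highest 100. Rplp1, an acidic protein of the stalk that recruits elongation factors, came next only through library 2, with 11.0 TPM in library 1 and 1225 in library 2. Rpl10, a late-joining protein of the large subunit near its catalytic centre, stood at 329 and 787 TPM. The small subunit gene Rps2 stood at 184 and 686 TPM. Rps29, Rps27, Rps3a1, Rps18 and Rpl13a were also among the 10 highest members by mean level and ranged from 10.4 TPM (Rps29) to 217 TPM (Rps27) in library 1 and from 423 TPM (Rps3a1) to 687 TPM (Rps29) in library 2. In library 1, 42 members were among the 1000 highest nuclear protein-coding genes, and in library 2, 80 were.

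At the low end, 3 paralogs known from other tissues were barely counted. Rpl3l, a striated muscle paralog of Rpl3, had 0 counts in both libraries, where a count of 0 allows up to 3 counts. Rpl10l and Rpl39l, paralogs known from testis, had 1 and 2 counts in library 1 and 0 in library 2. Their common counterparts were plentiful: Rpl3 stood at 43.8 and 307 TPM, Rpl10 as above, and Rpl39 at 129 and 181. Next came Rps19bp1 with 2.31 and 12.8 TPM and Rpl7l1, a paralog of Rpl7 linked to ribosome assembly, with 9.04 and 28.5. Rps27rt, Rpl37, Rpl35 and Rpl27 were also among the 10 lowest members, between 5.54 and 23.8 TPM in library 1 and between 76.5 and 129.85 TPM in library 2. The mRNAs of hepatocytes were present in both libraries, with all 6 markers at 1 TPM or more and sums of 25044 and 60844 TPM. The 3 skeletal muscle markers summed to 0.04 and 0.57 TPM and the 3 testis markers to 0.46 and 1.87 TPM, while of the 3 pancreas genes Prss2 and Cpa1 were at 0 in both and Cela1 had 18 and 117 counts (0.86 and 8.28 TPM, log2 fold 2.35).

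Expected counts were then compared between the libraries after scaling with the trimmed mean of M-values (TMM), as the log2 fold of library 2 over library 1. A gene with at least 20 counts in sum entered, and a gene was called higher or lower in library 2 at a fold of at least 2 (log2 fold of 1 in size). With 1 library on each side no test was possible, and each interval of a fold is an exact binomial 95% interval that covers counting error only. Of the 86 members 83 entered; Rpl3l, Rpl10l and Rpl39l did not. Of these 83, 53 (63.9%) were higher in library 2, none was lower, and 30 were neither. Over all 12728 genes that entered, 33.0% were higher and 24.0% were lower. The median log2 fold was 1.76 over the members and 0.04 over all genes. The subunits were alike in this: 31 of 49 large subunit genes were higher with a median of 1.76, and 21 of 33 small subunit genes with a median of 1.86. Rps19bp1 was also higher, at 1.57. Among the mitochondrial ribosomal protein genes, 30 of 77 were higher and 5 lower, with a median of 0.54.

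Beyond the call, the log2 fold was above 0 in 74 members and below 0 in 9, and it was at least 3 in 25. The counts at these cut-offs were not made over all genes, so they do not show whether the members differed from other genes. Scaling moves the log2 folds of all genes alike. Without TMM, the median of all genes moved up by 0.57, and 66 members were called higher, beside 42.2% of all genes, and none lower. At the median of all genes the log2 ratio of deposited TPM lay 0.80 above the TMM-scaled fold. This move was not alike for all genes, since TPM is corrected for a length that can differ between the libraries. Rpl15, with lengths of 1922 and 989 bases, went from 0.79 to 2.79. Rps2, with 633 and 994 bases, went from 1.86 to 1.90. In the deposited TPM, 82 of the 83 members were higher in library 2, beside 72.2% of all 12728 genes, and Rps24 was lower, beside 27.6%. Rpl10l and Rpl39l, which did not enter, were lower too. The files also give an interval for each TPM, whose level is not stated and which belongs to a separate posterior estimate. The library 2 interval lay wholly above that of library 1 in 80 members, beside 54.1% of the 12728 genes, and wholly below it in Rps24, beside 13.1%. The intervals overlapped in 5 members, Rpl23, Rpl22l1, Rpl39l, Rpl10l and Rpl3l.

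Rpl36 differed most. It had 0 counts in library 1 and 1348 in library 2, which is 0 and 401 TPM, so after scaling it was at least 359-fold higher in library 2, measured against 3 counts in library 1. Rps15, a small subunit protein, had 10 counts (1.38 TPM) in library 1 and 2162 (447 TPM) in library 2, a log2 fold of 7.37 (6.55 to 8.50). Rpl8, a large subunit protein at the catalytic centre, had 28 counts (1.81 TPM) and 3172 (305 TPM), a log2 fold of 6.48 (5.97 to 7.09). All 3 were near or at the floor in library 1 and near the members' median of 306 TPM, or above it, in library 2. The next largest were Rpl18 at 5.98, with 2.92 and 247 TPM, Rplp1 at 5.89, and Rps26 at 5.35, with 4.98 and 387 TPM.

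All 3 stalk genes were higher in library 2. Rplp0, the base of the stalk, stood at 11.9 TPM in library 1 and 353 in library 2, a log2 fold of 4.13 (3.96 to 4.31). Its acidic partners had 5.89 (Rplp1, 5.58 to 6.24) and 5.24 (Rplp2, 4.76 to 5.80), the latter with 4.38 and 267 TPM. Rplp0 and Rplp1 were close in library 1, where their deposited TPM intervals overlapped, and Rplp1 was well above the others in library 2.

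The 6 members with the lowest log2 folds all stayed inside the threshold. Rps24 had 5088 counts in library 1 and 3469 in library 2, a log2 fold of -0.88 (-0.94 to -0.81). Rpl22l1 had -0.81, with 111 and 120 TPM, and Rps27l, a paralog of Rps27 known as a p53 target, had -0.67, with 236 and 278 TPM. Rpl5, which binds 5S ribosomal RNA and can bind Mdm2, had -0.62, with 90.7 and 145 TPM. Rpl30 had -0.55, with 271 and 336 TPM, and Rpl39 had -0.41. After total-count scaling only 4 members were below 0 and after the ratio of TPM only 1, Rps24. Rps24 thus stayed below 0 in each, at -0.30 by total count and -0.155 by the ratio of TPM. For the others of these 6 the sign depended on the scaling.

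Members known for disease or signalling lay on both sides. Rpl11, the partner of Rpl5 in binding 5S RNA and Mdm2, stood at 74.6 TPM in library 1 and 367 in library 2 (log2 fold 1.70). Rps19, the gene most often mutated in Diamond-Blackfan anaemia, stood at 14.5 and 272 TPM (3.71), and Rps14, whose loss of a copy marks the 5q- syndrome in people, at 14.9 and 395 TPM (4.14). Rpsa, also known as the laminin receptor, stood at 16.7 and 271 TPM (3.13). These 4 were higher in library 2. Rps6, the target of S6 kinase, stood at 153 and 408 TPM (0.52), Rpl10 had 0.53, and Rps27a, which is made as a fusion with ubiquitin, stood at 242 and 344 TPM (-0.22). None of these 3 passed the threshold.

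The folds ran with the GC content of the coding sequence, taken as the mean over a gene's coding transcripts. Across the 83 members Spearman's rho between log2 fold and coding GC content was 0.86, and it was 0.88 in each subunit. These are descriptions across genes of the same pair of libraries, which share depth and base composition. Over 11965 nuclear protein-coding genes rho was 0.76. With the GC content of the whole transcript rho was 0.75 over members and 0.87 over nuclear protein-coding genes. Member coding sequences ranged from 39.8% to 61.6% GC with a median of 52.6%, and the median of nuclear protein-coding genes was 52.5%, so the members were not a GC-rich set.

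Divided by coding GC content, 10 members under 48% had a median log2 fold of -0.48, and 1 of them was called higher. Between 48% and 52%, 28 members had a median of 0.77 and 10 were higher. Between 52% and 56%, 25 members had a median of 2.52 and 22 were higher. All 20 members at 56% or more were higher, with a median of 4.07. The medians of the other nuclear protein-coding genes in the same classes were -1.20, -0.28, 0.80 and 2.15, and 0.36%, 8.03%, 44.6% and 72.3% of them were called higher. The members' median was the higher in each class, by a gap that widened with GC content. Short mRNAs were nearer to them. Among other nuclear protein-coding genes shorter than 1000 bases the medians were -1.02, 0.45, 1.76 and 3.22, beside -0.41, 0.75, 2.96 and 4.14 for members of that length, and 1.13%, 29.5%, 70.3% and 88.4% of those other genes were called higher.

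**Figure D2:**
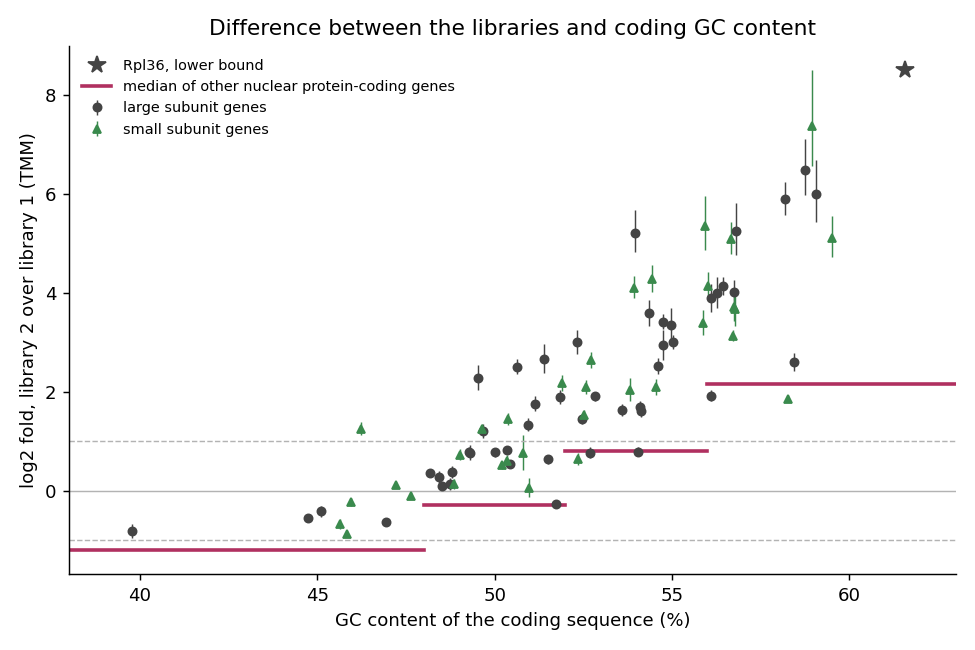
Log2 fold of library 2 over library 1 (TMM-scaled) against the GC content of the coding sequence in percent, for large (circles) and small (triangles) subunit genes, with exact binomial 95% intervals; the star is the lower bound for Rpl36, red bars are medians of the other nuclear protein-coding genes in 4 GC classes, and dashed lines mark a log2 fold of 1 and -1. Members climb with GC content and most lie above the red bars.

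The level in library 1 was lower at higher GC content, and that in library 2 was not. The median TPM of members in the 4 classes, from low to high GC, was 206, 78.9, 34.1 and 10.7 in library 1. In library 2 it was 340, 326, 301 and 329. Spearman's rho between level and coding GC content was -0.73 in library 1 and 0.07 in library 2 over the 86 members. After a smooth curve of fold on coding GC content, fitted over nuclear genes, was subtracted, 50 members were higher and none was lower, with a median of 1.30. Of the 11974 genes with a GC value, 16.8% were then called higher and 17.0% lower. With a curve on transcript GC content 44 members were higher and none was lower, with a median of 1.14. Of the same 11974 genes 11.2% were then higher and 11.0% lower. Both curves were chosen after the values were seen.

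**Figure D3:**
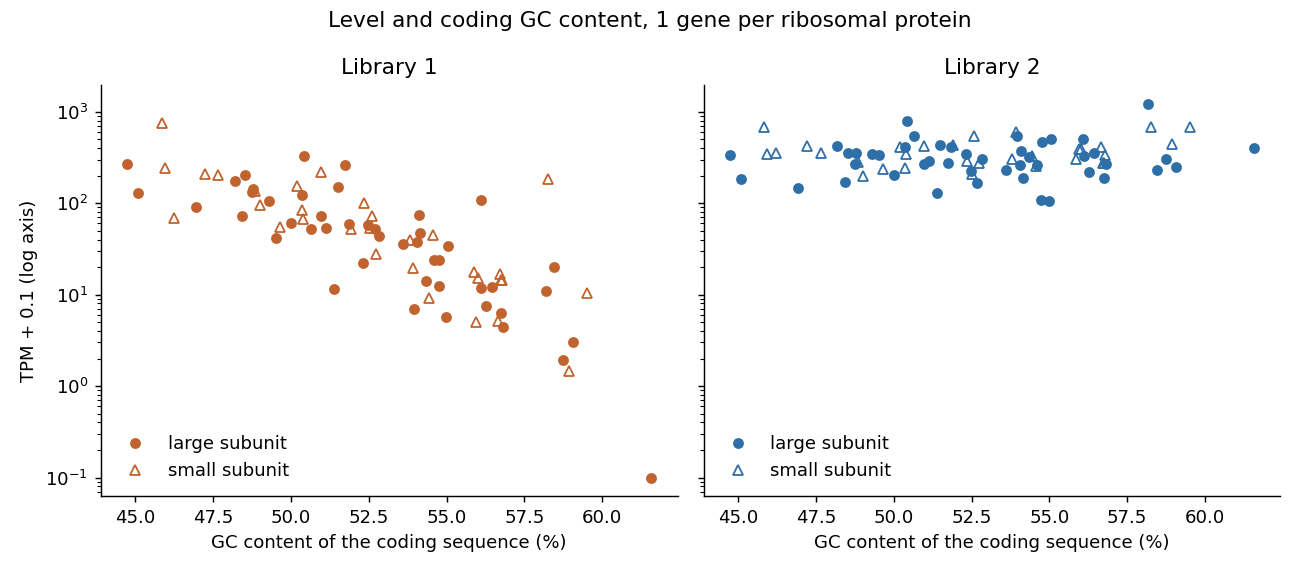
TPM + 0.1 on a log axis against the GC content of the coding sequence in percent, for the 77 genes that stand for 1 ribosomal protein each, in library 1 (left) and library 2 (right); filled circles are large and open triangles small subunit genes. Levels drop with GC content in library 1, down to Rpl36 at 0 TPM, and stay between 105 and 1225 TPM at every GC content in library 2.

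Because the libraries ranked the genes differently, the order within several paralog pairs changed. Rpl22, a large subunit protein that binds small viral and cellular RNAs, had 72.4 TPM in library 1 and 171 in library 2, against 111 and 120 for Rpl22l1. The paralog was therefore the higher of the pair in library 1 and the lower in library 2. Their coding sequences are 48.4% and 39.7% GC. Rpl36a had 133 and 268 TPM against 69.3 and 318 for Rpl36al, whose coding sequence is identical at 279 of 318 bases (87.7%). Rpl36a was the higher of the 2 in library 1 and the lower in library 2. Rpl7 stayed above Rpl7l1, with 201 and 352 TPM. Rps4x had 204 and 352 TPM, while its mouse relative Rps4l, annotated as a transcribed processed pseudogene and so no member, had 0 and 13.7 TPM.

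Rps27, a small subunit protein with a zinc finger, has 2 relatives in the set, and the 3 coding sequences are of equal length, 252 bases. They are shown for Rps27 (ENSMUSG00000090733.2, chr3:90212522-90213651, minus strand) and Rps27l (ENSMUSG00000036781.9, chr9:66946086-66949516, plus strand), with G and C in capitals, because they differ in base composition, at 50.8% and 46.0% GC, and in sequence, with 192 of 252 bases (76.2%) identical.
Rps27: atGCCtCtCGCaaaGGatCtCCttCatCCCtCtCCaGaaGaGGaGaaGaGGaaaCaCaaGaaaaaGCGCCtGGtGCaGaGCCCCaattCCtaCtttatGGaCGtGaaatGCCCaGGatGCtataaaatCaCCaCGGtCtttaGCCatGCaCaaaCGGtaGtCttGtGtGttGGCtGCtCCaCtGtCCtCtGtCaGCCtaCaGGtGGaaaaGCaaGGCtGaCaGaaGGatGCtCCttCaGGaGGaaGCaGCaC
Rps27l: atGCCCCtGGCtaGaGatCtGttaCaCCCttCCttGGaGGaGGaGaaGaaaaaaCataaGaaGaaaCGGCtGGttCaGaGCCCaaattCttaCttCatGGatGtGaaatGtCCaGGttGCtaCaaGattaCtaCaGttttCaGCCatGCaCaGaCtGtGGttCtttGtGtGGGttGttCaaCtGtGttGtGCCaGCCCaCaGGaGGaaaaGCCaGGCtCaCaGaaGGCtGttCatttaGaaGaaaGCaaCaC
The coding sequence of Rps27rt is identical to that of Rps27 at all 252 bases, so reads lying wholly within it cannot be told apart and the division between these 2 genes is given as uncertain. The deposited posterior SD of either gene's count was nonetheless small, 2.20 counts in library 1 and 3.15 in library 2, on 399 and 522 counts of Rps27 and 102 and 218 of Rps27rt. Rps27 had 217 and 426 TPM and a log2 fold of 0.06 (-0.13 to 0.26). Rps27rt had 23.8 and 76.5 TPM, a log2 fold of 0.77. Rps27l, at 236 TPM, was above Rps27 in library 1 and below it in library 2. Rps27 was also the member with the shortest effective length, 80.5 and 79.3 bases, and the only one under 150 bases. The effective length is the number of positions where a fragment could start, by which TPM divides, so the TPM of Rps27 rests heavily on that estimate.

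The isoform tables divide each gene's TPM over its annotated transcripts. The members had 376 transcripts, and 24 members had a single one. Of the 376, 183 are annotated as protein-coding, 116 as retaining an intron, 48 as processed transcripts with no open reading frame, 10 as targets of nonsense-mediated decay, and 19 have no entry in the annotation release used for names. The last 3 named types, here called noncoding, held 13.1% of the members' TPM in library 1 and 2.79% in library 2. Across all nuclear protein-coding genes they held 9.13% and 7.41%. Of 52 members with such a transcript, 45 had the larger noncoding share in library 1 and 5 in library 2. The share reached 20% in 17 members in library 1 and in 6 in library 2. The same counts were not made over all genes, so they do not show whether the members differed from other genes.

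In several genes the deposited tables named a noncoding transcript as the main product in library 1 and the coding mRNA in library 2. For Rps16 all 44.6 TPM of library 1 were given to the intron-retaining Rps16-203, and in library 2 99.4% of 255 TPM were given to the coding Rps16-201. For Rpl24 the coding Rpl24-201 had 0% in library 1 and 98.0% in library 2. For Rpl23 the processed transcript Rpl23-204 held 90.6% in library 1 and 8.38% in library 2, while the coding Rpl23-201 had 8.59% and 90.4%. The summed level of Rpl23 was almost the same in both libraries, 259 and 274 TPM, so here the deposited division differed while the gene's total hardly did. Whether the RNA itself or only the division of reads differed was not tested. Rps2, Rps28 and Rpl35 showed the same direction, with noncoding shares of 60.1%, 74.6% and 98.3% in library 1 and 2.05%, 0.45% and 41.5% in library 2. Rpl30 went the other way, with a noncoding share of 1.48% in library 1 and 27.8% in library 2.

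Other differences in the deposited shares were between coding transcripts. Rpl38-202 held 100% of Rpl38 in library 1 and 0.30% in library 2, where Rpl38-204 held 84.6%. Rpl15-202 held all of Rpl15 in library 1 and 15.9% in library 2, where Rpl15-203 held 62.2%. The coding Rpl18-201 held 9.14% in library 1 and 94.1% in library 2, on a total of 23 counts in library 1, where most of the rest was given to a transcript with no entry in the annotation used for names. Rps24 was steadier, with Rps24-201 at 97.1% and 86.1%. Some noncoding shares were high in both libraries. Rps20 had 97.0% and 90.9%, all of it in transcripts annotated as retaining an intron, Rps20-202 with 51.5% and 1.06% and Rps20-201 with 45.5% and 89.8%. Rpl5 had 42.5% and 41.6%. The type is a label of the annotation and was not checked against reads.

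**Figure D4:**
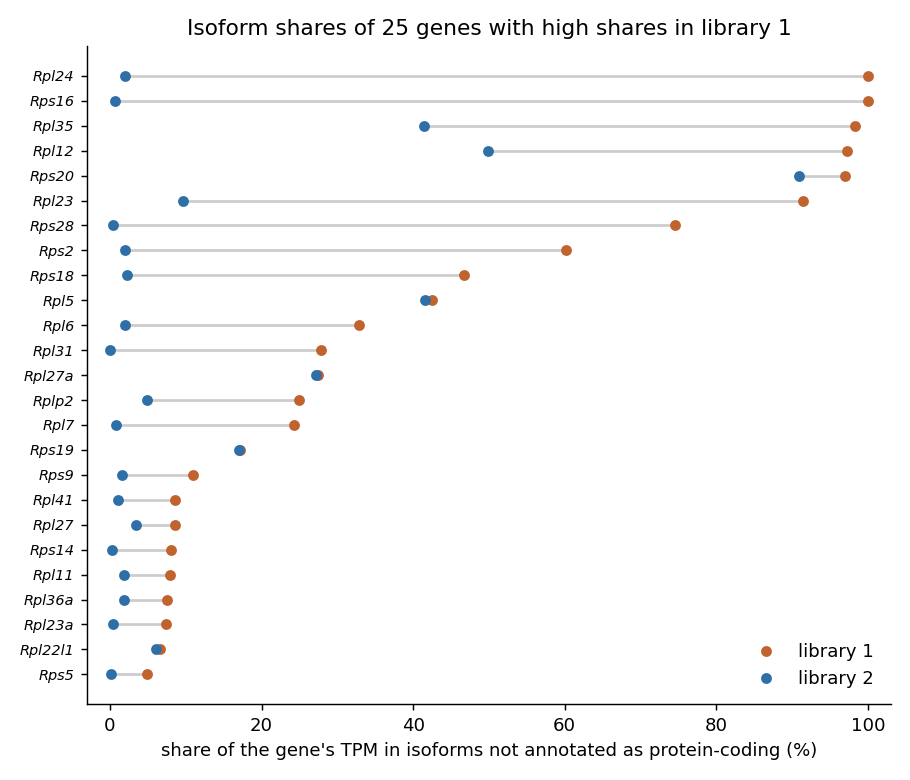
Share of each gene's TPM, in percent, given to isoforms not annotated as protein-coding (retained intron, processed transcript or nonsense-mediated decay) in library 1 (orange) and library 2 (blue), for 25 of the members with the largest shares in library 1. Rps16 goes from 100% to 0.61% and Rpl23 from 91.4% to 9.62%, while Rps20, Rpl5, Rpl27a and Rps19 keep similar shares.

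Measured over the 60 members with at least 2 transcripts, a mean of at least 10 TPM and a TPM above 0 in both libraries, 32 (53.3%) had an isoform whose share differed by 20 percentage points or more, beside 47.5% of all 3520 such genes. The highest isoform differed in 17 (28.3%), beside 31.8%. Both shares are near those of all genes, so how often the deposited isoform shares differed did not set the members apart. The stated error of the genes' total counts was small for most members, and no such error was examined for single isoforms. The deposited posterior SD of a gene's count was under 5% of the count in 76 of the 81 members with at least 20 counts in library 1 and in all 83 in library 2. The largest was 11.2%, for Rpl27 in library 1.

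The members share features that the symbol rule did not use. Small nucleolar RNA genes lie within 30 of the 86 members (34.9%), 58 of them in all, beside 204 of 11980 nuclear protein-coding genes that entered the comparison (1.70%). Rpl4 holds 5 and Rpl13a holds 4. Start sites were read from RefSeq windows on GRCm38.p6, which were found for 66 members. A C at the annotated start followed by at least 4 pyrimidines, the strict form of a TOP start, occurred in 14 of 66 members (21.2%), in 2.96% of 9516 nuclear protein-coding genes that entered the comparison, and in 3.01% of all 27025 genes with a window. A run of 8 or more pyrimidines on the coding strand within 15 bases on either side of the start occurred in 27 members (40.9%), and in 15.1% and 13.9% of those genes. The annotated start need not be the one used in liver, and no match says only that the letters are not in this window. The windows of 4 members with long runs show the pattern, with the longest run of pyrimidines in capitals: Rpl7a at chr2:26910792-26910821 on the plus strand, Rpl27a at chr7:109519180-109519209 on the plus strand, Rpl35 at chr2:39005117-39005146 on the minus strand and Rpl15 at chr14:18270972-18271001 on the minus strand.
Rpl7a: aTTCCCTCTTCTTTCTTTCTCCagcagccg
Rpl27a: gacttcgtgagCTCCTCCCTTTTCCCTTTC
Rpl35: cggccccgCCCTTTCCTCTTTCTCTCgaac
Rpl15: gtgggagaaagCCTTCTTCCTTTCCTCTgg
Their log2 folds were 3.41, 1.63, 2.93 and 0.79, in the order shown. Whether the fold went with a run at the start was not tested.

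Ribosomal proteins with other symbols were looked at beside the members. Fau, which is made as a fusion of a ribosomal protein with a ubiquitin-like protein, stood at 17.3 and 431 TPM (log2 fold 3.75). Rack1, a scaffold on the small subunit, stood at 28.2 and 244 TPM (2.88). Both were higher in library 2. Of 14 further mRNAs known for TOP starts, 4 were higher and 4 lower, with a median of 0.09, beside 33.0% higher and 24.0% lower over all 12728 genes. Among the 14, the elongation factor Eef2 had 13.3 and 553 TPM (4.49) with a coding GC content of 57.3%. Eef1a1 had 1378 and 4004 TPM (0.54) with 49.2%, and Tpt1 had 2134 and 1361 TPM (-1.07) with 44.8%. These 3 were named for their mean TPM, and whether the folds of all 14 ran with GC content was not tested.

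Lists of genes that make and control ribosomes differed among themselves. Of 21 genes for ribosome assembly 7 were higher, 4 lower and 10 neither, with a median of -0.10, beside 33.0% higher and 24.0% lower over all 12728 genes. The nucleolar protein Ncl had 57.8 and 51.3 TPM and a log2 fold of -1.27, the export adaptor Nmd3 had 38.8 and 32.5 TPM and -1.51, and Sbds, which helps release Eif6 from the large subunit, had 18.4 and 35.8 TPM and 0.04. Of 6 chaperones dedicated to ribosomal proteins 2 were higher and none lower, with a median of -0.17. Of 9 genes for translational control 6 were higher and 3 lower, with a median of 1.05. Among these Larp1 had 8.57 and 32.2 TPM (1.05), and the kinases Mtor and Rps6kb1 had 1.02 and -1.52. The medians of these lists were not corrected for GC content.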

How the data were processed

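PolyA-selected RNA of 1 liver was sequenced as 2 technical libraries. Per the file headers, each library has a gene and a transcript table of expected counts (estimated counts, not normalised), TPM and FPKM (both divided by effective length) and, for transcripts, isoform shares in percent of the gene's TPM, all as the authors deposited them; posterior count SDs, TPM interval bounds and lengths in bases were deposited too. Per the files' descriptions, the assembly was mm10 with annotation M4. What software aligned and quantified the reads, and whether strand was used, was not given in the sources used here. FPKM values were not used.

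Symbols, biotypes, coordinates and coding sequences came from GENCODE M21 on the same assembly, and start windows from RefSeq (GRCm38.p6). Gene members, lists and tests were chosen with earlier results of these data known. Expected counts were rounded and scaled with TMM in edgeR 4.0.16 (R 4.3.3; factors 0.818 and 1.22), with a prior count of 0.5. The scripts were tested on simulated data. GC content was averaged, unweighted, over the protein-coding transcripts of a gene; the printed stretches come from 1 transcript each. The GC curves were loess fits with span 0.3. The requirement of a TPM above 0 in both libraries was added to the isoform comparison because a share is undefined at 0 TPM.

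Named genes were the 10 highest and 10 lowest members by mean TPM, the 6 largest log2 folds in each direction, the 10 largest isoform moves, members with an effective length under 150 bases, stalk proteins, paralogs, a fixed set of well-known members, and up to 3 genes of each list by mean TPM. Outside that rule, and picked with their values in view, are Mtor and Rps6kb1, the isoforms of Rps2, Rps28, Rpl30, Rpl35, Rps24, Rps20 and Rpl5, and the members whose start windows are printed. Depth was 23309905 and 19525500 expected counts. A few genes that the naming rule covers are not reported here by name; they remain in all counts and medians.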

Additional observations from a re-analysis of the deposited data

How the results depend on the processing

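The count of members higher in library 2 ran from 44 to 72 over the other settings tried, against 53 as reported. The 72 came from the ratio of TPM, where the median of all genes lay 0.80 higher, so the same threshold was looser there. The share of all genes called at that setting was not computed. No member was called lower except without the count filter, when 2 were (Rpl10l and Rpl39l, with 1 and 2 counts against 0). The median log2 fold of the members, 1.76 as reported, was 2.34 by total count, 2.43 by the ratio of TPM, 1.91 with at least 200 counts, 1.14 and 1.30 after the transcript and coding GC curves, and 1.91 with 1 gene per ribosomal protein. The difference of the subunits' median log2 folds, large minus small, was -0.10 as reported and changed sign to 0.35 by the ratio of TPM and to 0.069 after the coding GC curve; it was -0.42 after the transcript GC curve. The GC curves and the selection of 1 gene per protein were added after the data were seen; the cause of each move was not tested. The members' share of nuclear protein-coding TPM, 2.77%, was 0.909% as a share of expected counts, where no length correction is made. The large minus small difference in level, -0.31, was -0.26 with counts per annotated length and -0.15 for members of at least 10 TPM in both libraries. Leaving out either library gave shares of all TPM of 0.665% to 2.78%, shares of nuclear protein-coding TPM of 1.77% to 3.78% and level differences of -0.33 to -0.28. Isoform counts stayed at 16 to 18 for a changed highest isoform and 29 to 32 for a moved share. Low counts in library 1 limit the folds of Rpl36, Rps15, Rpl18 and Rpl8 there, and 1 animal gives no measure of biological spread.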

Other observations

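Processed copies of ribosomal protein mRNAs take part of the reads in tables of this kind. In these files 252 genes carry the symbol of a ribosomal protein pseudogene, and together they held 1565 expected counts in library 1 and 3319 in library 2, which is 2.03% and 1.48% of the members' counts. Copies under any other symbol were not counted, so these shares cover only the symbols of this set. Of the 252, 45 had a count in library 1 and 59 in library 2. Rpl31-ps8 had 61.1 and 368 counts with deposited posterior SDs of 19.9 and 38.7, Rpl10a-ps1 had 107 and 385 with SDs of 27.1 and 49.9, and Rpl27-ps3 had 0 and 441 with SDs of 7.27 and 70.7. Those SDs are a larger part of the count than for most members, so the division of reads between these copies and their parent genes is uncertain. Rpl37rt, annotated as a transcribed processed pseudogene, had 12.6 and 229 counts and 1.10 and 116 TPM, beside 5.54 and 105 TPM for Rpl37. By TPM the copy was thus listed above its parent gene in library 2 and below it in library 1, whereas by counts it was below in both, since Rpl37 had 86.4 and 1099 counts. The genes in this paragraph were chosen after their values were seen.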
